A study of Mus musculus with 20 samples.

Results

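Glucose metabolism and insulin signalling in mouse liver were described through 32 genes: the enzymes and sugar transporters that take glucose up, burn it, store it as glycogen or release it, and the receptors and factors through which insulin and glucagon set that balance. Every array spot named for such a gene under its current symbol or a synonym was collected, which gave 47 probes. All 32 genes had a probe well above background and are among the 21998 genes that could be tested. For 12 of them several probes passed, and the brightest was used.

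The livers came from 20 ovariectomized mice in 4 groups of 5, with 1 array for each mouse. Wild types (ERa+/+) carried estrogen receptor alpha and nulls (ERa-/-) lacked it, the wild types being bred from the parents that also gave the nulls. Ovaries were removed at 4 weeks of age, and at 9 weeks each mouse received by gavage either placebo (castor oil with 5% ethanol) or estradiol (E2, the main ovarian estrogen) at 1 mg/kg. Livers were taken 4 hours later under ketamine and xylazine anaesthesia, which all groups shared. The genotype is that of the whole animal, and all mice lacked ovaries, so neither a loss limited to liver cells nor normal hormone cycles are represented. Food intake before sampling and blood glucose are not recorded in the sources used here.

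The liver takes up glucose after a meal through Slc2a2 and breaks it down by glycolysis or stores it as glycogen. In fasting it releases glucose from glycogen and makes new glucose by gluconeogenesis. Insulin acts through its receptor and the substrates Irs1 and Irs2, and holds down gluconeogenic genes by keeping the Foxo factors out of the nucleus. Glucagon acts in the opposite direction through its receptor Gcgr. Estrogens are known to affect glucose production and insulin sensitivity of the liver.

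Levels below are log2 of the processed intensity minus the 75th percentile of that array, so a level is relative to its own array and cannot be set against another gene's level. An error after a mean is the SD of 5 animals, and one after a log2 difference is the SE of the fit. Between 51.6% and 70% of spots were well above background, and arrays of the same group correlated at 0.981 to 0.995, against 0.978 to 0.993 between groups. All 8 hepatocyte markers were well above background, and none of 4 skeletal muscle markers was. Esr1, the gene of the receptor, lay between -0.04 and 1.02 in the 10 wild types and between -2.16 and -0.93 in the 10 nulls, so the genotypes did not overlap. It was lower in nulls by a log2 difference of -2.00 ± 0.23 (SE, 5 against 5) under placebo, with an adjusted p of 0.000482 in limma. Each adjusted p below comes from limma, fitted to all 20 arrays and adjusted by Benjamini-Hochberg over the 21998 genes, and a gene was called where it was under 0.05.

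E2 left the glucose genes without a called change at 4 hours. In wild types limma called 0 of the 32, against 0.318% of all genes, and the smallest adjusted p was 0.372. An unadjusted p under 0.05 was found for 4 of them: Slc2a1, Slc2a9 and Foxo3 with higher means under E2, and Gckr with a lower mean. Over all genes, 8.28% had such a p. The log2 differences ran from -0.35 for Pklr to 0.56 for Foxo3 with a median of 0.03, beside a median of 0 over all genes. For 31 of the 32, the 95% interval of the E2 difference lay within 1 log2 unit of 0, so for these genes a change past that size lies outside the interval. Ppp1r3g, the exception, had an interval from -1.34 to 1.43.

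In nulls E2 also gave 0 called genes of 32 in limma, against 0.00455% of all genes, and 0 had an unadjusted p under 0.05, against 6.06% of all genes. The median log2 difference was -0.08, beside -0.01 over all genes, and 8 of the 32 were above 0, against 46.8% of all genes. That count was 12 with quantile normalization and with the deposited values, 14 with only animals numbered 750 or above, and 1 with scaling to the array median. The test of whether the E2 effect differed between genotypes called 0 of 32 (0.164% of all genes), with an unadjusted p under 0.05 for 3 genes, Foxo3, Slc2a1 and Ppp1r3b, and for 7.39% of all genes. Signs of such small differences depended on the scaling. With each array scaled to its median in place of its 75th percentile, the median of all genes under E2 shifted to -0.222 in wild types and to -0.117 in nulls, and the medians of the 32 genes then stood at -0.20 and -0.18.

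The called genes of the list came from the comparisons of nulls with wild types. Slc2a1 was called under placebo, 1 of 32 against 0.0727% of all genes, and Slc2a1 and Pdk1 were called when nulls and wild types were compared over both treatments, 2 of 32 against 0.696% of all genes. All of these calls were higher in nulls. Under E2 alone limma called 0 of 32 (0.464% of all genes), and 7 had an unadjusted p under 0.05, each with a higher mean in nulls, against 9.63% of all genes. Over both treatments, 27 of the 32 had a higher mean in nulls, against 51.3% of all genes, and 15 had an unadjusted p under 0.05, against 12.9% of all genes. Of these 15, 14 had higher means in nulls and Irs2 had a lower one. The list was chosen with earlier results of these data known, so its counts beside those of all genes are description, not a test. The median log2 difference of the 32 was 0.19 under placebo, 0.09 under E2 and 0.14 over both, beside 0.01, 0 and 0 over all genes. With the deposited values it was 0.10 under placebo and 0.09 over both treatments, and with quantile normalization it was 0.10 in each. The count above 0 over both treatments was 28 with scaling to the array median and 25 with quantile normalization. Markers of cell types are given beside the list. Over both treatments all 8 hepatocyte markers had higher means in nulls (median 0.06), as did 1 of 7 Kupffer cell markers (median -0.14), 0 of 5 sinusoidal endothelial markers (-0.09) and 2 of 5 stellate cell markers (-0.21), with none of these called. So did 2 of 5 bile duct markers (-0.04), 2 of 4 B cell markers (0.09), 1 of 4 kept T and NK cell markers (-0.02) and the 1 kept adipocyte marker (0.66), again with none called. All 3 kept red cell markers did as well (0.26), with 1 called. The summed hepatocyte level was 4450 to 5210 and 4390 to 5250 in wild types (placebo and E2) and 4550 to 5740 and 4430 to 5170 in nulls. Their part in the shift of the list was not tested. These comparisons share animals with each other and with the E2 comparisons, so their values are not independent.

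Within slides (4 slides, which mix the groups), the median of the 32 genes for nulls against wild types over both treatments was 0.03 on slide 1 (6 arrays, 18 genes above 0) and 0.22 on slide 2 (6 arrays, 26 genes above 0). The other slides did not hold all groups. Under placebo it was 0.04, 0.20 and 0.29 on slides 1, 2 and 3. The shift of the list was near 0 on slide 1 in both comparisons.

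**Figure D1:**
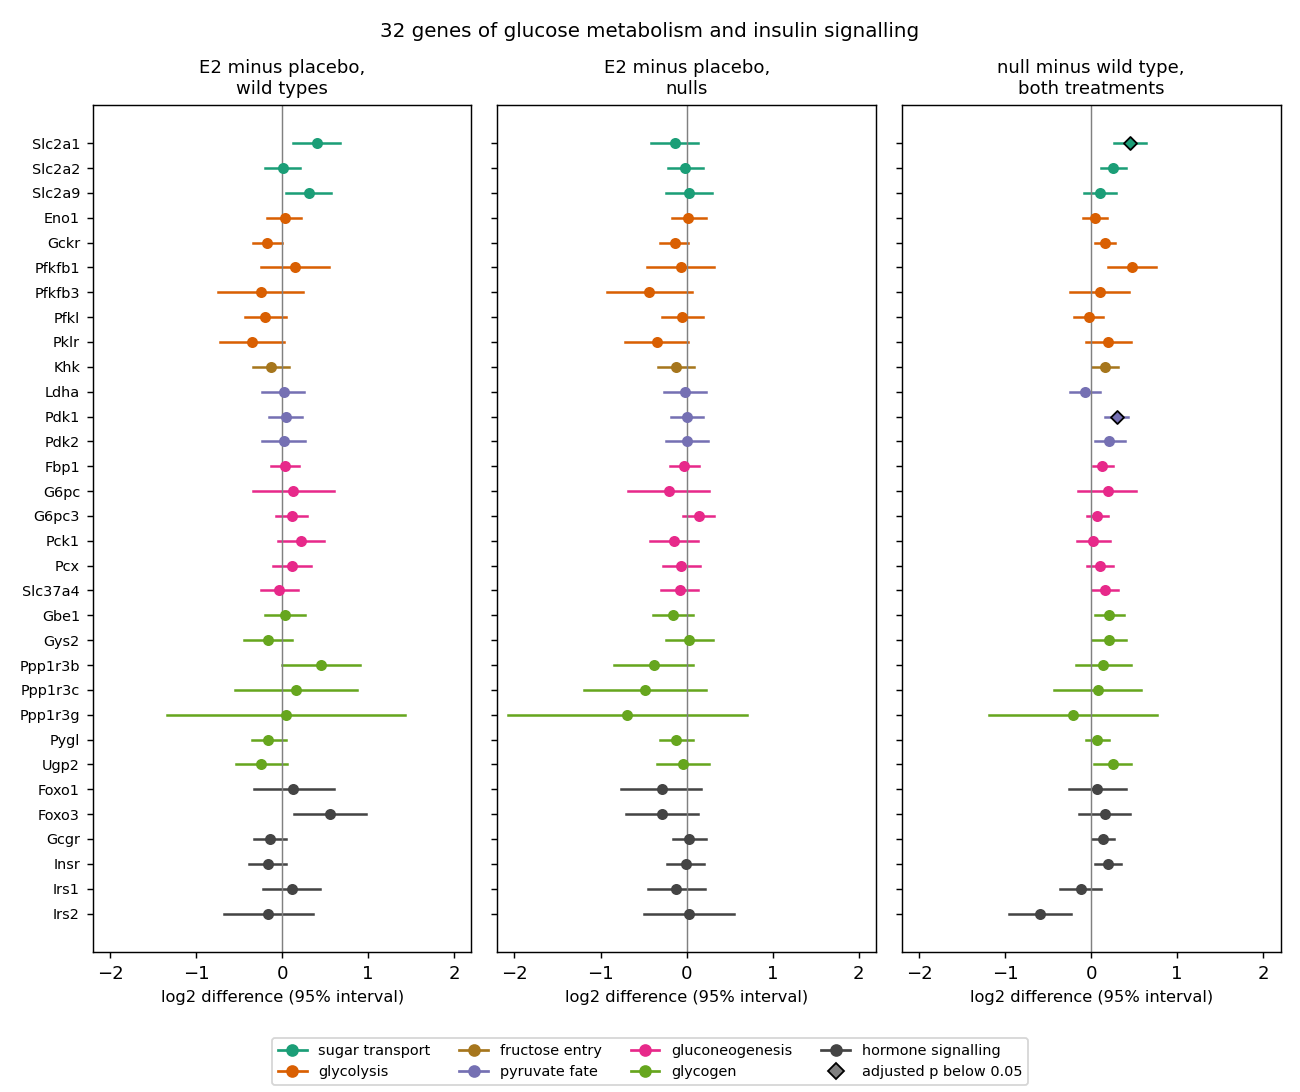
Log2 differences (x axes) of the 32 genes, ordered by role and coloured by it, for E2 minus placebo in wild types (left) and in nulls (middle) and for nulls minus wild types over both treatments (right). Points are the fitted differences of groups of 5 mice, lines their 95% intervals, and diamonds mark an adjusted p under 0.05. Only Slc2a1 and Pdk1 carry a diamond, both at right, where 27 of 32 points lie above 0.

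Slc2a1 encodes GLUT1, a glucose transporter that most cells use for basal uptake and that is weakly expressed in hepatocytes and abundant in red cell precursors and endothelium. It stood higher in the placebo-treated nulls than in any wild type given placebo. Its levels in wild types were 1.66, 1.05, 1.11, 0.95 and 1.45 under placebo and 1.78, 1.43, 1.82, 1.68 and 1.5 under E2 (replicates 1 to 5). In nulls they were 1.89, 2.04, 1.93, 2.10 and 1.87 under placebo and 2.05, 1.61, 1.91, 1.69 and 1.88 under E2. The placebo groups did not overlap, while the E2 groups did, and wild types given placebo were the lowest and most scattered group (1.24 ± 0.30, against 1.97 ± 0.10 in nulls given placebo, SD, n = 5 each).

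Under placebo Slc2a1 was 1.65-fold higher in nulls, a log2 difference of 0.72 ± 0.13 (adjusted p 0.0356). Under E2 the difference was 0.19 ± 0.13 (adjusted p 0.665). Over both treatments it was 0.45 ± 0.09 with an adjusted p of 0.0215. E2 against placebo gave 0.40 ± 0.13 in wild types and -0.14 ± 0.13 in nulls, and the difference of these effects, 0.54 ± 0.18, had an adjusted p of 0.571. The placebo genotype difference and the wild-type E2 difference are both taken against the same 5 wild types given placebo.

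The placebo difference in Slc2a1 was above 0 on all 3 slides that held both groups, each with few arrays. It was 0.92 on slide 1 (3 arrays), 0.98 on slide 2 (2 arrays) and 0.71 on slide 3 (4 arrays). Wild-type placebo replicate 1, the highest of its group (1.66), was on slide 4 and entered none of these. The call of Slc2a1 under placebo was less stable than the direction. Of the 5 nulls given placebo, 3 carry animal numbers below 750, and none of the 5 wild types given placebo does. What the number stands for is not stated in the sources used here. With the number as a block the difference was 0.74 with an adjusted p of 0.0625, and with the slide as a block it was 0.73 with an adjusted p of 0.121. Leaving out a single array took the adjusted p to the threshold or above it for 10 of the 20 arrays. These were null placebo replicates 1, 2, 4 and 5 (adjusted p of 0.0647, 0.111, 0.0998 and 0.052), wild-type placebo replicates 2, 3 and 4 (0.0704, 0.157 and 0.132), wild-type E2 replicates 4 and 5 (0.0515 and, after rounding, 0.05) and null E2 replicate 3 (0.0511). The log2 difference itself stayed between 0.65 and 0.83 over all 34 alternatives. The call of Slc2a1 over both treatments was lost with the slide as a block (0.46, adjusted p 0.0695), with scaling to the array median (0.51, 0.125), with no filter on dim probes (0.45, 0.0568) and with only animals numbered 750 or above (0.45, 0.22). It was also lost without wild-type E2 replicate 5 (adjusted p 0.0554) or wild-type placebo replicate 3 (0.0524).

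Alas2, a red cell marker, was called in the same direction as Slc2a1 under placebo, and the other red cell markers were not called. In whole liver, fewer cells of a type and less RNA per cell cannot be told apart. The summed level of the red cell list (4 of 5 genes on the array, 3 of them kept) was 106 to 150 in wild types given placebo, 156 to 240 in wild types given E2, 136 to 202 in nulls given placebo and 150 to 209 in nulls given E2. The sum takes in all 4 genes on the linear scale, so bright genes weigh most in it. Under placebo all 3 kept markers had higher means in nulls: Alas2, the first enzyme of heme synthesis in red cell precursors, by a log2 difference of 0.90 (adjusted p 0.00249), Slc4a1 by 0.63 (adjusted p 0.255) and Hba-a1 by 0.39 (adjusted p 0.35). Between animals of the same group, Slc2a1 and Alas2 gave no called relation (Pearson's r of -0.24 over 20 animals, permutation p 0.212, a pair chosen after the values were seen). With the deposited values r was -0.44 (adjusted permutation p 0.0399). The part of red cells in the Slc2a1 difference was not tested. The sinusoidal endothelial list (5 of 5 kept) had 1 marker with a higher mean in placebo-treated nulls, with a summed level of 35.2 to 66.1 in wild types and 31.2 to 49.8 in nulls given placebo.

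**Figure D2:**
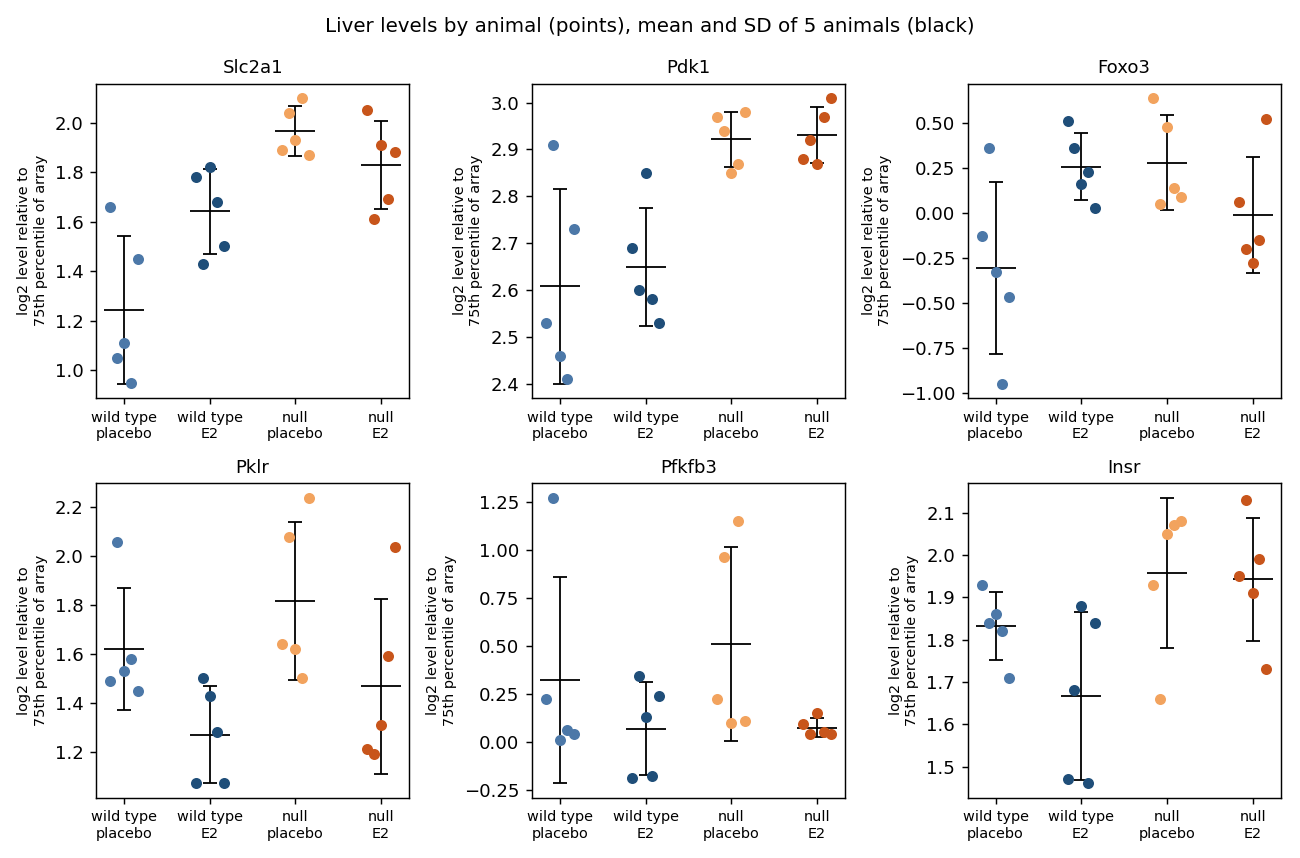
Log2 level relative to the array's 75th percentile (y axes) of 6 genes by animal in the 4 groups of 5 mice, with the mean and SD in black. For Slc2a1 the wild types given placebo (1.24 ± 0.30) lie below the nulls given placebo (1.97 ± 0.10) with no overlap, and for Pdk1 each null given E2 lies above each wild type given E2.

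The start of the Slc2a1 gene is shown because Slc2a1 and Pdk1, the called genes, are also textbook targets of the hypoxia-inducible factors. The 250 bases before its start in RefSeq (build GRCm38.p6, chr4:119108495-119108744, plus strand) are printed with the capitals marking ACGTG or GCGTG, the cores of the hypoxia response element, and GGTCA, a partial estrogen response element, on either strand. They lie 36 bases (ACGTG), 61 bases (GCGTG, read on the opposite strand) and 101 bases (GGTCA) before the start.
Slc2a1: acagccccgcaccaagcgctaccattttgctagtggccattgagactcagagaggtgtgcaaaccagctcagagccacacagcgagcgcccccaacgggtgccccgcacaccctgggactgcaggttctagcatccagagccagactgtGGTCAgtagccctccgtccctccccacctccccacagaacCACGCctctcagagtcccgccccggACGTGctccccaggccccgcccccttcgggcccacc
The same window of Pdk1 (chr2:71872974-71873223, plus strand, the lower of 2 starts in the table) holds 1 GCGTG, 78 bases before the start. It holds no GGTCA, while the window of the other start, not printed here, does.
Pdk1: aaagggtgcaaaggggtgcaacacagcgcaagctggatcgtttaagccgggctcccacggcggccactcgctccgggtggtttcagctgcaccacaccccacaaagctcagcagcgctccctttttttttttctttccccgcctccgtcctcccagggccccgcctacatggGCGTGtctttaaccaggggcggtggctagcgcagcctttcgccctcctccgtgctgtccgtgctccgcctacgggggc
Such short matches are common. Of 32851 windows of 250 bases in the table, 16.6% hold ACGTG, 28.2% hold GCGTG and 35.2% hold GGTCA. Of the 43 windows of the 29 listed genes with an entry, 32.6%, 37.2% and 51.2% do. The full estrogen response element GGTCANNNTGACC, the inverted repeat of that GGTCA, is in 0 of the 43 and in 0.0639% of all windows. The forkhead element GTAAACA is in 0 of 43 (3.17% of all), and the cAMP response element TGACGTCA is in 1, that of Ldha (1.55% of all). Gys2, Insr and Ppp1r3b have no entry.

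The levels of both genes each rest on a single probe of 60 bases, whose first 30 are printed to identify it. On build mm9, in which the array files give positions, the Slc2a1 probe lies at chr4:118809864-118809923 and the Pdk1 probe at chr2:71739688-71739747, both on the plus strand. Which exon or UTR they match was not determined here.
Slc2a1 probe: acccacttgtaaatacaccaacaaactcct
Pdk1 probe: agccaaatcatgtgacatggcacaaaatag

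Of the other transporters, Slc2a2 encodes GLUT2, the main glucose transporter of hepatocytes, and Slc2a9 a urate and hexose transporter. Slc2a2 was not called: its means were 5.45 ± 0.20 and 5.45 ± 0.18 in wild types (placebo and E2) and 5.71 ± 0.08 and 5.69 ± 0.04 in nulls (SD, n = 5 each). The difference over both treatments was 0.25 ± 0.07 (SE) with an adjusted p of 0.0937, and its E2 differences were 0.01 in wild types and -0.02 in nulls. Slc2a9 had means of 0.70 ± 0.14 and 1.00 ± 0.12 in wild types given placebo and E2, groups that did not overlap, with a log2 difference of 0.31 ± 0.13 and an adjusted p of 0.53. In nulls its E2 difference was 0.03 ± 0.13.

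Pdk1 is a kinase that inactivates pyruvate dehydrogenase and so keeps pyruvate out of the mitochondrial oxidation of glucose. It was higher in nulls under both treatments by nearly the same amount and had E2 differences near 0. The wild types had levels of 2.53, 2.91, 2.46, 2.41 and 2.73 under placebo and 2.69, 2.60, 2.85, 2.58 and 2.53 under E2 (replicates 1 to 5). The nulls had 2.97, 2.94, 2.85, 2.87 and 2.98 under placebo and 2.88, 2.92, 2.87, 2.97 and 3.01 under E2. The nulls given E2 all lay above the wild types given E2. Under placebo the groups overlapped through wild-type replicate 2, and the nulls lay close together (SD of 0.06 in both groups, against 0.21 and 0.13 in wild types).

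Over both treatments Pdk1 was 1.23-fold higher in nulls, a log2 difference of 0.30 ± 0.06 (SE) with an adjusted p of 0.0359. Taken alone, neither treatment gave a call: 0.31 ± 0.09 under placebo (adjusted p 0.237) and 0.28 ± 0.09 under E2 (adjusted p 0.298). Its E2 differences were 0.04 in wild types (95% interval from -0.15 to 0.23) and 0.01 in nulls (from -0.18 to 0.19). Within slides 1 and 2 the difference over both treatments was 0.16 and 0.31, and with the slide as a block it was 0.29 with an adjusted p of 0.0937. The call was also lost with scaling to the array median (adjusted p 0.364), quantile normalization (0.0624), no filter on dim probes (0.0982) and only animals numbered 750 or above (0.282). With the replicate number as a block it was lost as well. Leaving out a single array kept the difference between 0.27 and 0.33, and the adjusted p rose above 0.05 when any of 12 arrays was left out. These were null E2 replicates 1, 2, 4 and 5 (0.0572, 0.0626, 0.0695 and 0.066), null placebo replicates 2, 4 and 5 (0.0622, 0.0559 and 0.0633), wild-type E2 replicates 2, 4 and 5 (0.067, 0.0684 and 0.0785) and wild-type placebo replicates 3 and 4 (0.0791 and 0.0752).

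Pdk2, the kinase of the same family that is abundant in liver, and Ldha, the lactate dehydrogenase subunit A, share the branch point at pyruvate. Pdk2 had means of 3.69 and 3.71 in wild types and 3.91 in both null groups, a difference of 0.21 ± 0.08 over both treatments with an adjusted p of 0.26, and its second probe also gave 0.21. Ldha gave -0.07 ± 0.08 (adjusted p 0.815), and its other probes gave -0.15 and -0.10. Ldha, Eno1 and Pfkfb3, which are hypoxia-inducible as well, had differences of -0.07, 0.04 and 0.10 over both treatments, none of them called. A part of hypoxia in the levels of Slc2a1 and Pdk1 was not tested.

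Among the 6 glycolytic genes none was called in any comparison, where at most 0.696% of all genes were called. Pklr encodes the liver pyruvate kinase, which insulin and glucose induce. Its levels in wild types were 1.49, 2.06, 1.53, 1.58 and 1.45 under placebo and 1.07, 1.5, 1.43, 1.28 and 1.07 under E2. In nulls they were 1.64, 2.08, 1.62, 1.5 and 2.24 under placebo and 1.21, 1.19, 1.31, 1.59 and 2.04 under E2. The wild-type groups overlapped only through E2 replicate 2, and the null groups overlapped widely. The E2 difference was -0.35 ± 0.18 (SE) in both genotypes, with adjusted p of 0.618 in wild types and 0.824 in nulls. On slides 1, 2 and 4 the wild-type difference was -0.67, -0.33 and -0.42, and on slides 1, 2 and 3 the null difference was -0.65, 0.05 and -0.28.

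Pfkfb3 and Pfkfb1 encode forms of the enzyme that makes and breaks down fructose 2,6-bisphosphate, the signal that drives glycolysis, and Pfkfb1 is the liver form. Pfkfb3 had levels of 0.22, 1.27, 0.01, 0.06 and 0.04 in wild types given placebo and -0.19, 0.34, 0.13, -0.18 and 0.24 in wild types given E2. In nulls it had 0.22, 0.96, 0.10, 1.15 and 0.11 under placebo and 0.09, 0.04, 0.15, 0.05 and 0.04 under E2. Only 3 animals, all given placebo, reached 0.96 or more, and the other 17 lay between -0.19 and 0.34. The E2 difference was -0.44 ± 0.23 in nulls (adjusted p 0.824) and -0.25 ± 0.23 in wild types (adjusted p 0.80).

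Pfkfb1 was not called either. It had means of 4.40 ± 0.47 and 4.55 ± 0.24 in wild types and 4.98 ± 0.16 and 4.91 ± 0.25 in nulls (placebo and E2, SD, n = 5 each). The difference over both treatments was 0.47 ± 0.13 with an adjusted p of 0.0984, the highest of the 32 by log2 difference, and it was 0.39 and 0.82 on slides 1 and 2. Gckr, which encodes a regulatory protein of the first step of hepatic glycolysis, gave 0.16 ± 0.06 (adjusted p 0.205). Pfkl, the liver subunit of phosphofructokinase, gave -0.03 ± 0.08, and Eno1, an enolase, gave 0.04 ± 0.07. Khk, the ketohexokinase through which fructose enters the pathway, gave 0.16 ± 0.07 (adjusted p 0.346), and its second probe gave 0.34.

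None of the 6 genes of gluconeogenesis was called in any comparison, beside at most 0.696% of all genes. They are G6pc and G6pc3, catalytic subunits of glucose 6-phosphatase, Slc37a4, the transporter that feeds it, and Pck1, Pcx and Fbp1, enzymes of the path from pyruvate. Pck1 and G6pc, the usual transcriptional readouts of glucagon and insulin, differed between nulls and wild types over both treatments by 0.02 ± 0.09 and 0.19 ± 0.16. With E2 they gave 0.22 ± 0.13 and 0.13 ± 0.23 in wild types and -0.15 ± 0.13 and -0.21 ± 0.23 in nulls. The smallest adjusted p of the 6 in wild types was 0.673, that of Pck1. Under placebo all 6 had higher means in nulls, by 0.06 (G6pc3) to 0.35 (G6pc). So did 28 of the 32 listed genes and 53.4% of all genes, so this direction was not particular to gluconeogenesis. In limma 0 of the 6 were called, and 0 had an unadjusted p under 0.05, against 2226 of the 21998 genes. Slc37a4 gave 0.16 over both treatments on the probe used and -0.31 on its second probe, so its direction depends on the probe.

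G6pc and Pck1 varied together from animal to animal. Within the wild types given placebo, G6pc ran from 7.04 to 8.28. Deviations from the group mean correlated with Pearson's r of 0.76 and Spearman's rho of 0.75 over 20 animals (permutation within groups, p of 0.00069 and 0.00176, adjusted over 6 pairs to 0.00414 for r). Without the 2 animals farthest from the median in Pck1, r was 0.62 (permutation p 0.0111), and it was 0.66 and 0.86 over the 6 animals of slide 1 and of slide 2. Irs2 with Pck1 gave 0.44 (adjusted permutation p 0.163), Irs2 with Igfbp1, an insulin-repressed gene of hepatocytes, gave 0.38 (0.172), and G6pc with Slc37a4 gave 0.36 (0.172). On slides 1 and 2 these were -0.64 and 0.64, -0.43 and 0.63, and 0.75 and 0.19, so both Irs2 pairs changed sign between slides. Pklr with Fasn, the fatty acid synthase that insulin and glucose also induce, gave r of 0.58 and rho of 0.48 (adjusted permutation p 0.0464 for r). Without the 2 animals farthest out in Pklr, null E2 replicate 5 and wild-type placebo replicate 2, r was 0.41 (permutation p 0.229). The call lay close to the threshold and was also lost when other single animals were left out, as given below. On slides 1 and 2 r of Pklr with Fasn was 0.93 and 0.37.

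**Figure D3:**
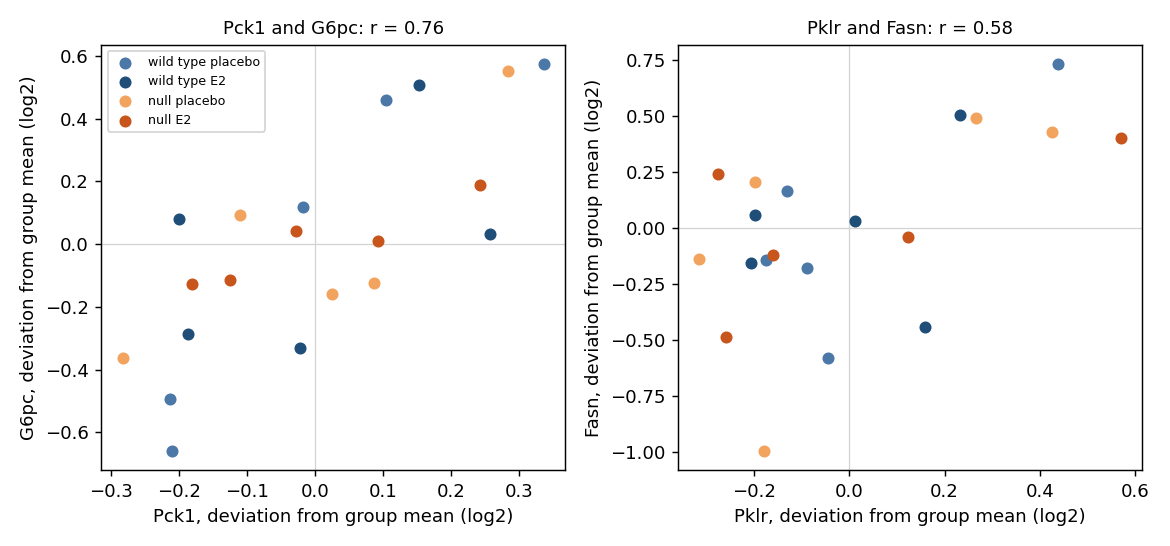
Deviation of each animal from its group mean on the log2 scale for Pck1 (x) and G6pc (y) at left and for Pklr (x) and Fasn (y) at right, 20 animals coloured by group. Pck1 and G6pc correlate at r = 0.76, and Pklr and Fasn at r = 0.58.

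The 7 glycogen genes held no called gene in any comparison, beside at most 0.696% of all genes. Gys2 is the liver glycogen synthase, Ugp2 and Gbe1 supply its substrate and its branches, and Pygl is the liver phosphorylase that breaks glycogen down. Over both treatments Gys2 gave 0.21 ± 0.09, Ugp2 0.25 ± 0.10, Gbe1 0.21 ± 0.08 and Pygl 0.07 ± 0.07. The smallest adjusted p on the probes used, that of Gbe1, was 0.224. Second probes gave 0.15 for Gys2, 0.41 for Ugp2 and 0.11 for Gbe1. That of Ugp2 had an adjusted p of 0.0816 in limma over all kept probes. Ugp2 also had a lower mean under E2 in wild types (-0.24 ± 0.14, adjusted p 0.673), in groups that did not overlap. Under placebo all 7 had higher means in nulls, from 0.05 (Pygl) to 0.56 (Ppp1r3b). So did 28 of the 32 listed genes and 53.4% of all genes, so this direction was not particular to glycogen genes. In limma 0 of the 7 were called, and 2 had an unadjusted p under 0.05, against 2226 of the 21998 genes.

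Ppp1r3b, Ppp1r3c and Ppp1r3g encode subunits that bring protein phosphatase 1 to glycogen, where it activates the synthase. Ppp1r3b had means of 6.80 ± 0.48 and 7.25 ± 0.18 in wild types (placebo and E2) and 7.36 ± 0.36 and 6.98 ± 0.34 in nulls, all overlapping. Its E2 differences of 0.45 ± 0.22 and -0.38 ± 0.22 differed by 0.83 ± 0.31, with an unadjusted p of 0.0136 and an adjusted p of 0.614. Ppp1r3g, whose levels are known to follow feeding, was the most variable of the 32 genes: its levels ran from 0.98 to 5.00, and its SD between animals of the same group was 1.12, percentile 99.3 of all genes. Ppp1r3c followed with an SD of 0.57. The median such SD was 0.19 over the 32 genes and 0.23 over all genes, and 11 of the 32 exceeded the latter. The E2 difference of Ppp1r3g in nulls, -0.69, had a 95% interval from -2.07 to 0.70.

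**Figure D4:**
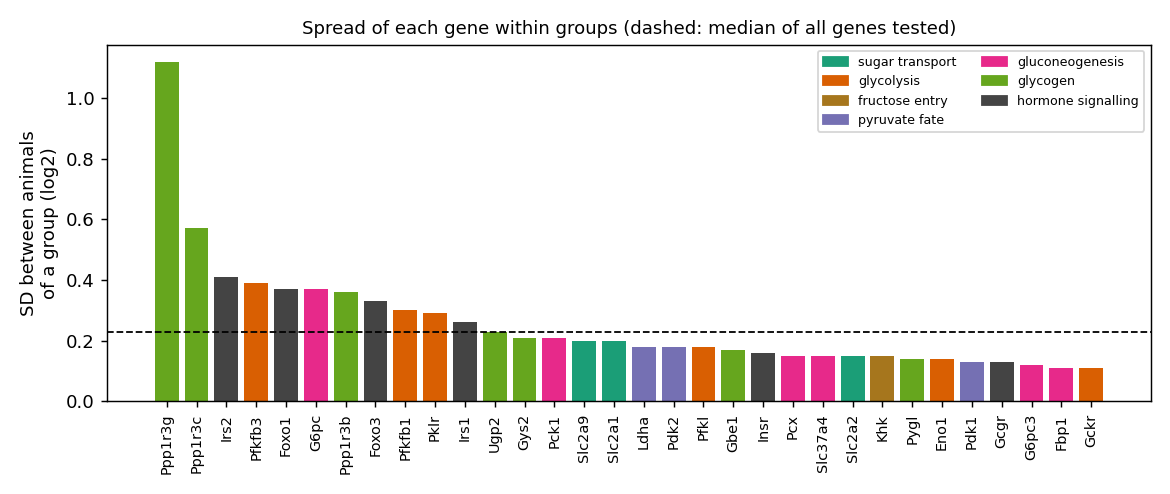
Bars give the SD of each of the 32 genes between animals of the same group (log2 units, y axis from 0), in falling order and coloured by role, and the dashed line marks the median SD of all genes tested, 0.23. Ppp1r3g stands at 1.12 and 11 genes lie above the line.

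Of the 6 hormone signalling genes none was called in any comparison, beside at most 0.696% of all genes. Foxo3 encodes a forkhead factor that insulin signalling inactivates. It had levels of -0.13, 0.36, -0.33, -0.95 and -0.47 in wild types given placebo and 0.51, 0.36, 0.16, 0.23 and 0.03 in wild types given E2. In nulls it had 0.64, 0.05, 0.48, 0.14 and 0.09 under placebo and 0.06, -0.20, -0.28, -0.15 and 0.52 under E2. Wild-type placebo replicate 2 overlapped the E2 group, and the other 4 lay below it. The E2 difference was 0.56 ± 0.20 (SE) in wild types (unadjusted p 0.0111, adjusted p 0.449) and -0.29 ± 0.20 in nulls (adjusted p 0.875). The difference of these effects, 0.85 ± 0.28, had the smallest p of the 32 genes in that test (unadjusted 0.00716, adjusted 0.557).

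The wild-type E2 difference in Foxo3 was not even across slides, at -0.06, 1.29 and 0.17 on slides 1, 2 and 4. A second Foxo3 probe, well above background on 10 of 20 arrays, gave 0.50 for E2 in wild types but 0.14 for nulls against wild types under placebo, where the probe used gave 0.58. Foxo1, the forkhead factor that drives gluconeogenic genes, gave E2 differences of 0.13 ± 0.22 in wild types and -0.29 ± 0.22 in nulls, with adjusted p of 0.902 and 0.895.

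Insr, the insulin receptor, had levels of 1.93, 1.84, 1.86, 1.82 and 1.71 in wild types given placebo and 1.47, 1.68, 1.88, 1.46 and 1.84 in wild types given E2. In nulls it had 1.93, 1.66, 2.05, 2.07 and 2.08 under placebo and 1.95, 2.13, 1.91, 1.99 and 1.73 under E2. All groups overlapped. Nulls exceeded wild types by 0.28 ± 0.10 under E2 (adjusted p 0.424) and by 0.20 ± 0.07 over both treatments (adjusted p 0.223). Its other probes gave 0.04 and 0.20 over both treatments.

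Irs2, the insulin receptor substrate that rises in fasting liver, had the lowest log2 difference of the 32 between nulls and wild types under placebo and over both treatments, and was not called. Under E2, Ppp1r3g (-0.58) was lower than Irs2 (-0.50). Its means were 4.51 ± 0.41 and 4.35 ± 0.42 in wild types and 3.82 ± 0.46 and 3.85 ± 0.35 in nulls (placebo and E2, SD, n = 5 each). The difference over both treatments was -0.60 ± 0.18 (SE) with an adjusted p of 0.119, and it was -0.73 on slide 1 and -0.15 on slide 2. Irs1 gave -0.12 ± 0.11 (adjusted p 0.742), and Gcgr, the glucagon receptor, gave 0.14 ± 0.06 (adjusted p 0.359).

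The wider pathway was read from 117 further genes of these routes, of which 111 were measured. Limma called 0 of the 111 in each of the 6 comparisons. Of all genes it called between 0.00455% (E2 in nulls) and 0.696% (genotype over both treatments). At such shares 0 of 111 is not a result about these genes. An unadjusted p under 0.05 was found for 7 for E2 in wild types, 7 for E2 in nulls and 7 for the difference of the effects. For genotype it was found for 14 under placebo, 6 under E2 and 17 over both treatments. Of the 21998 genes, 1821, 1333, 1626, 2226, 2118 and 2837 had such a p in the same order, or 8.28% for the first and 12.9% for the last. Over both treatments 74 of the 111 had higher means in nulls, against 51.3% of all genes. Their median log2 difference was 0.05, beside 0 over all genes. Named after their values were seen, Akr1b3, the aldose reductase of the polyol route to fructose, gave 0.29 ± 0.08 (SE, adjusted p 0.0806), and Mdh1, the cytosolic malate dehydrogenase, gave 0.26 ± 0.07 (adjusted p 0.0871), both over both treatments. Under placebo Dlat, a subunit of the pyruvate dehydrogenase complex that Pdk1 restrains, gave 0.54 ± 0.13 (adjusted p 0.147). For E2 in wild types, Mlxipl, the glucose-sensing factor ChREBP that induces Pklr, gave -0.41 ± 0.13 (adjusted p 0.336), and Igfbp1 gave 1.15 ± 0.49 (adjusted p 0.554).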

How the data were processed

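Per the labels' protocols, Cy3-labelled RNA with an integrity number over 9 from each liver went on a 1-colour Agilent array. Per the file headers, the deposited spot intensity was extracted with Agilent Feature Extraction 10.10.1.1, background-subtracted and detrended. Here log2 of that intensity minus the 75th percentile over 59305 spots was used, without control and non-uniform spots (0 to 16 an array), and no spot was saturated. Of 55681 probes, 30961 passed the filter, which asked for 4 or more of the 5 arrays of any group to be well above background. Names came from RefSeq by accession (27235 probes), symbol (3581) or synonym (565), and otherwise from the array. The number of arrays limits the precision.

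Differences were fitted with limma 3.58.1 in R 4.3.3, with 4 group means, 16 residual and 2.44 prior degrees of freedom, 2-sided. Values were given on every array for called genes and for those with the 2 smallest p-values of a comparison. The limma fit was checked on simulated data for the genotype difference over both treatments. The other comparisons, the correlations and the alternatives were not checked in this way. The genes, their lists and the further genes of the pathway were chosen with earlier results of these data known. Alternatives were scaling, background correction, filter, probe choice, samples, blocks, array weights and leaving out each array. The authors also deposited log2 values of 32526 probes, which followed the log2 median signal (r from 0.9987 to 1, column medians 7.85) and were used as an alternative. Correlations of gene pairs used 100000 permutations within groups, 2-sided. Promoters are RefSeq's on GRCm38.p6 and probe positions those of mm9 in the files.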

Additional observations from a re-analysis of the deposited data

Results flagged for a closer look

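In 6 of 128 sets of 5 animals (32 genes in 4 groups), the highest or lowest animal stood apart from the rest by Dixon's criterion, and chance gives about 1 set in 20. Wild-type placebo replicate 2 was high in Pklr (2.06, next animal 1.58) and in Pfkfb3 (1.27, next 0.22). Among nulls given placebo, replicate 5 was low in Eno1 (7.24, next 7.57), replicate 1 was high in Ugp2 (6.68, next 5.92) and replicate 4 was low in Gbe1 (5.58, next 5.76). Null E2 replicate 5 was high in Khk (9.04, next 8.65). No gene called in any comparison was among them.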

How the results depend on the processing

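Over 34 alternatives for Slc2a1 under placebo and 33 each for Slc2a1 and Pdk1 over both treatments, no difference changed sign. The call of Slc2a1 under placebo was lost in 16 of 34 (adjusted p from 0.00615 to 0.321), that of Slc2a1 over both treatments in 6 of 33 (0.0044 to 0.22) and that of Pdk1 in 18 of 33 (0.0101 to 0.364). Under placebo, 0 genes of the list were called with scaling to the array median, with no filter on dim probes, with only the groups compared, with the slide or the animal number as a fixed block, and with only animals numbered 750 or above. Over both treatments, 0 were called with the array median, no filter, the slide block or only animals numbered 750 or above, and 1 (Slc2a1) with quantile normalization. Leaving out 1 array gave 0 to 1 called genes under placebo and 0 to 2 over both treatments, where 0 came from leaving out wild-type E2 replicate 5 or wild-type placebo replicate 3. Without a filter 34741 genes were tested, and the smaller samples have fewer animals. The cause of the other losses was not tested.

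The median log2 difference of the 32 genes moved past the spread of this median between animals (SD of 0.0671) as follows. With the array median it was -0.20 for E2 in wild types, -0.18 for E2 in nulls, -0.08 for the difference of the effects and 0.20 for genotype under E2, where the median of all genes stood at -0.222, -0.117, -0.101 and 0.114. With only animals numbered 750 or above it was -0.05 for E2 in wild types and 0.16 for genotype under E2. Under placebo it was 0.10 with quantile normalization and with the deposited values.

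Same-numbered animals of different groups correlated in their deviations at -0.16 to 0.24 (median 0.09, 12 of 30 pairs over 0.1), and differently numbered ones at -0.31 to 0.30 (median -0.02, 25 of 120 over 0.1). Since not every same-numbered pair exceeded 0.1 and no label ties the numbers to a litter or day, they were not taken as pairing. Such correlations cannot exclude that same-numbered animals share a litter or day, and this was not tested. With a replicate block 1 gene of the list was called under placebo and 1 over both treatments, where Pdk1 had an adjusted p of 0.0598.

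Calls over all genes moved by more than 1.5 times from 16 under placebo (2 to 52), 153 over both treatments (49 to 517), 70 for E2 in wild types (32 to 101 with other settings), 36 for the difference of the effects (10 to 51), 102 for genotype under E2 (35 to 133) and 1 for E2 in nulls (0 to 2). The share of higher calls over both treatments was 40.8% with the array median and 48.1% with quantile normalization, against 90 of 153. It ran from 38.2% (slide block) to 67.4% (without wild-type placebo replicate 5). Under placebo it was 28.6% with the array median, against 6 of 16. There it ran from 11.1% (without null placebo replicate 2) to 63.5% (array weights).

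With 1 animal left out, r of Pklr with Fasn was 0.48 to 0.65, and leaving out any of 12 of the 20 animals ended its call. With the deposited values r of Slc2a1 with Alas2 was -0.44 (adjusted permutation p 0.0399). Detection did not limit the list: the probe used for each of the 32 genes was well above background on all 20 arrays.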
